A study of Homo sapiens with 2 samples.

Results

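The subject here was the set of genes that write, erase and read N6-methyladenosine (m6A) on messenger RNA, measured by RNA-seq in H9 cells, an established line of human embryonic stem cells. The members were taken by name: the writers METTL3, METTL14, WTAP and RBM15, the erasers ALKBH5 and FTO, and the readers YTHDC1, YTHDF1, YTHDF2 and YTHDF3. These 10 genes, of 20263 in the deposited table, carried 67 of its 95139 transcripts. Cells of the siHNRNPA1 group had been treated for 48 h with small interfering RNA targeting HNRNPA1, which encodes the splicing regulator hnRNP A1, and cells of the sicontrol group for 48 h with a control small interfering RNA. Both groups were H9 cells with no other treatment or allele in the labels, and each had 1 library. No difference below therefore has a replicate check, and no test was made. Brackets give the 95% counting interval, which covers counting error only. Levels are FPKM (fragments per kilobase of transcript and per 1000000 fragments), summed over the transcripts of a gene.

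m6A is the most common internal modification of messenger RNA. METTL3 and METTL14 form the methyltransferase core, and WTAP and RBM15 belong to the accessory complex that places it on RNA in the nucleus. ALKBH5 and FTO are demethylases, and proteins with a YTH domain bind the methylated base: YTHDC1 in the nucleus, where it affects splicing and export, and the YTHDF proteins in the cytoplasm, where they are tied to RNA decay and translation. In embryonic stem cells the mark is known for limiting the lifetime of transcripts of pluripotency factors. hnRNP A1 binds exons and introns and is known mainly as a repressor of exon inclusion.

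The libraries held 28147828 estimated counts for siHNRNPA1 and 26680342 for sicontrol. HNRNPA1 itself was at 180 FPKM in the siHNRNPA1 library, against 663 FPKM in the sicontrol library, which is 27.1% of the sicontrol level. All 8 pluripotent stem cell markers were measured in both libraries. Of these, 2 were lower past 2-fold, where 21.9% of all genes with a mean of at least 1 FPKM were. They were SOX2 at 58.3 against 126 FPKM (log2 fold -1.10) and PODXL at 102 against 312 FPKM (-1.61). The log2 fold was -0.37 for SALL4, -0.31 for NANOG, -0.09 for TDGF1, -0.01 for LIN28A and 0.08 for DNMT3B. POU5F1 was at 157% of its sicontrol level. The fibroblast markers COL3A1, DCN and LUM were at 0 in both. The summed level of the 7 fibroblast markers was 218 FPKM in siHNRNPA1 against 264 FPKM in sicontrol, mostly THY1 (181 against 233 FPKM). COL1A2 (8.38 against 13.3 FPKM) and PDGFRB (2.65 against 3.61 FPKM) were also lower in siHNRNPA1, while COL1A1 was higher (25.0 against 14.5 FPKM). Of the neural markers, NES had 127 FPKM in siHNRNPA1 against 56.0 FPKM in sicontrol, and PAX6 and NEUROD1 were at 0 in the siHNRNPA1 library. The 5 mesoderm markers in the table summed to 0.998 against 0.649 FPKM, and the 5 endoderm markers to 5.30 against 2.39 FPKM. SOX17 and GATA6 were at 0 in both, and FOXA2 had 1.52 FPKM (123 counts) in siHNRNPA1 and was listed at 0 in sicontrol. Mitochondrially encoded transcripts made up 18.1% of TPM (the measure per length that sums to 1000000 in a library) in siHNRNPA1 and 28.2% in sicontrol. What part these differences had in the values below was not tested.

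As a set, the m6A genes were at similar levels in both libraries, and the 3 with the lowest folds were not unusual in the table. Of all genes with a mean of at least 1 FPKM, 20.7% had a lower fold than RBM15, 26.2% than METTL14 and 28.2% than YTHDC1. RBM15, METTL14 and YTHDC1 were lower in the siHNRNPA1 library, and the other 7 lay closer to the sicontrol level. For METTL14 and YTHDC1 the sign turned in 1 kind of alternative, the subtraction of the folds of like genes given below. The members summed to 156 FPKM in siHNRNPA1 against 170 FPKM in sicontrol. All 10 passed the filter of a mean of at least 1 FPKM. The fold was log2((siHNRNPA1 + 1)/(sicontrol + 1)) of FPKM, which understates the change of weakly expressed genes. On this scale 1 of the 10 members (RBM15) was at least 2-fold lower, where 21.9% of the 11921 genes that passed the filter were. None was at least 2-fold higher, where 12.4% of all genes were. The median log2 fold was -0.09 over the members and -0.13 over all genes that passed the filter, with 7 members below 0 and 3 above. After the subtraction given below, the medians were 0.44 over the members and 0.0 over all genes. In bulk RNA, fewer cells with a transcript and less of it per cell cannot be told apart.

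The order of the levels was also close. In the siHNRNPA1 library METTL3 was the most abundant, followed by ALKBH5, WTAP, YTHDF1, YTHDF2, YTHDC1, YTHDF3, RBM15, FTO and METTL14. YTHDF3 and RBM15 were the only neighbours in that order with overlapping counting intervals. In the sicontrol library the order was METTL3, ALKBH5, YTHDF1, YTHDC1, WTAP, YTHDF2, RBM15, YTHDF3, METTL14 and FTO. No neighbours overlapped there, though FTO at 2.57 (2.36 to 2.80) and METTL14 at 3.09 (2.83 to 3.37) FPKM lay close together. RBM15 thus stood above YTHDF3 in sicontrol, but the pair overlapped in siHNRNPA1. The plot of gene levels shows the 10 members by role.

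**Figure D1:**
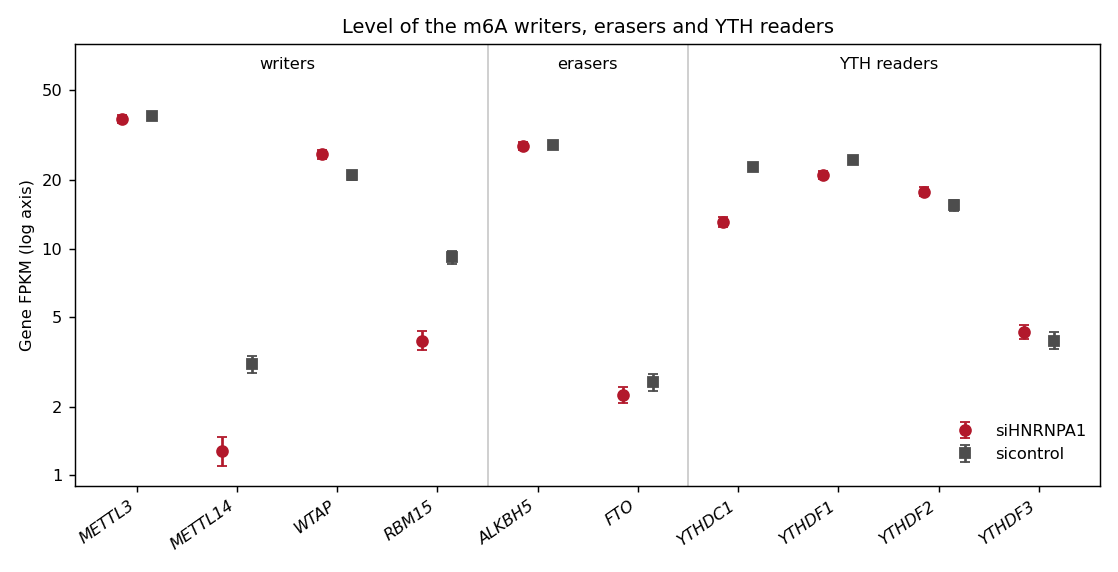
Gene FPKM on a log axis of the 10 members, with the siHNRNPA1 library (red circles) left of the sicontrol library (grey squares) and 1 library per group. Bars are 95% counting intervals (exact Poisson) and hold no spread between samples. METTL14, RBM15, YTHDC1 and YTHDF1 are lower and WTAP and YTHDF2 higher in siHNRNPA1 with intervals that do not overlap. Those of METTL3, ALKBH5, FTO and YTHDF3 overlap. How many of all genes have intervals that do not overlap was not counted, so this is not particular to the members.

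Among the writers, METTL3, the catalytic subunit, was at the same level in both libraries. The gene (ENSG00000165819, chromosome 14, 21498133 to 21511375, minus strand) had 37.3 FPKM (35.9 to 38.8) in siHNRNPA1 against 38.5 FPKM (36.9 to 40.0) in sicontrol, a log2 fold of -0.04. At least as much of this came from transcripts annotated for nonsense-mediated decay, which destroys RNA with a premature stop codon, as from the one that encodes the enzyme. The full coding transcript ENST00000298717, with 580 codons, had 15.3 FPKM in siHNRNPA1 against 18.8 FPKM in sicontrol, or 41.1% against 49.0% of the gene. The decay transcript ENST00000543235 had 18.9 FPKM in siHNRNPA1 against 16.2 FPKM in sicontrol, or 50.6% against 42.2%. It keeps introns of 168 bases (chr14:21499138-21499305) and 120 bases (chr14:21499372-21499491) and lacks 79 bases of an exon (chr14:21501825-21501903), a length that shifts the reading frame. That stretch is shown to make the frame shift visible, with the missing bases in capitals, from the GENCODE 29 transcripts (GRCh38, read on the minus strand):
METTL3 ENST00000298717: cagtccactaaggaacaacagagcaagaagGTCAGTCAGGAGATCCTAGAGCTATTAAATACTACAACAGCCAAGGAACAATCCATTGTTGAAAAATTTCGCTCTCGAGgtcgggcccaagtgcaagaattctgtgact
METTL3 ENST00000543235: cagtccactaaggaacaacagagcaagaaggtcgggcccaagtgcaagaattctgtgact

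The 4 decay transcripts of METTL3 that carried counts together made up 59.1% (57.1 to 61.0) of its estimated counts in siHNRNPA1 and 50.5% (48.5 to 52.5) in sicontrol. These intervals do not overlap, but the difference was under the 20 percentage points used below to count a transcript. With transcripts annotated as protein-coding alone, the log2 fold of METTL3 was -0.29. METTL3 shares 388 exonic bases with TOX4 on the opposite strand. TOX4 had 16.3 FPKM in siHNRNPA1 against 15.6 FPKM in sicontrol, and since the strand of the libraries is not stated, reads of this stretch cannot be told apart.

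METTL14, the RNA-binding partner of METTL3, was the least abundant writer and was lower in the siHNRNPA1 library. The gene (ENSG00000145388, chromosome 4, 118685368 to 118715433, plus strand) had 1.28 FPKM (1.1 to 1.48) in siHNRNPA1 against 3.09 FPKM (2.83 to 3.37) in sicontrol. The log2 fold was -0.84 with the pseudocount and -1.27 without it. The estimated counts were 183 against 517, which is 33.6% of sicontrol in CPM, counts scaled to the total of the library. The transcript of the full coding sequence, ENST00000388822 with 456 codons, had 0.744 FPKM (166 counts) in siHNRNPA1 against 2.41 FPKM (501 counts) in sicontrol. A short transcript with a partial coding sequence, ENST00000506780, had 0.538 FPKM (17 counts) against 0.380 FPKM (11 counts). It made up 42.0% of the gene's FPKM in siHNRNPA1 against 12.3% in sicontrol, although it held few counts, since FPKM divides by length. METTL14 had the lowest GC content of the members, 38.4% in its most abundant transcript, a property that went with lower folds across all genes, as given below.

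WTAP, which recruits the METTL3 and METTL14 core to nuclear speckles, was slightly higher in the siHNRNPA1 library, and the excess lay in its short form. The gene (ENSG00000146457, chromosome 6, 159725585 to 159756319, plus strand) had 26.1 FPKM (24.9 to 27.2) in siHNRNPA1 against 21.1 FPKM (20.1 to 22.1) in sicontrol, a log2 fold of 0.29. The sign held under the other settings that could move the fold, except that it was -0.03 after scaling to a common sum without mitochondrially encoded genes. Transcripts of the full coding sequence of 396 codons summed to 8.08 FPKM in siHNRNPA1 against 12.6 FPKM in sicontrol, or 31.0% against 59.9% of the gene. The short transcript ENST00000337387, with 151 codons, had 15.8 FPKM in siHNRNPA1 against 6.96 FPKM in sicontrol, or 60.5% against 33.0%. The forms part at the end of 1 exon (chr6:159748191-159748369). The full form splices there to the next coding exon, the short form reads on into the intron and stops, and a further short form with 170 codons splices to an exon inside the intron. The last bases of that exon are shown in lower case, and in capitals what each form joins to them (GENCODE 29, GRCh38, plus strand), ending for the short form at its stop codon:
WTAP ENST00000358372: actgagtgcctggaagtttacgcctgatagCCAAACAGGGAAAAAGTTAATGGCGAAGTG
WTAP ENST00000337387: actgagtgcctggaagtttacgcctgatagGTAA
WTAP ENST00000614346: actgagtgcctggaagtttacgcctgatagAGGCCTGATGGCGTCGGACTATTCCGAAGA

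The 3 short forms of WTAP together held 69.0% of its FPKM in siHNRNPA1 against 40.1% in sicontrol. By estimated counts their share was 49.7% (47.5 to 52.0) against 26.7% (24.6 to 29), so the difference did not depend on dividing by length. Within the full form the lower level lay in 1 transcript. ENST00000621533 had 0.185 FPKM (13 counts) in siHNRNPA1 against 5.81 FPKM (380 counts) in sicontrol, while ENST00000358372, with the same coding sequence and a longer 5′ end, had 7.90 FPKM against 6.83 FPKM. Of the 50-base words of its most abundant transcript, 13.7% also occur in 1 other gene entry of the annotation, and its exons share 298 bases with SOD2 on the opposite strand, which had 8.70 FPKM in siHNRNPA1 against 17.3 FPKM in sicontrol.

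RBM15, which binds RNA and brings the methyltransferase to its sites, was the member with the lowest fold. The gene (ENSG00000162775, chromosome 1, 110338506 to 110346681, plus strand) had 3.93 FPKM (3.57 to 4.32) in siHNRNPA1 against 9.14 FPKM (8.57 to 9.74) in sicontrol, a log2 fold of -1.04. The siHNRNPA1 level was 43.0% of sicontrol by FPKM and 43.8% by CPM (440 against 952 counts, log2 ratio -1.19, interval -1.36 to -1.03). The log2 fold lay below 0 under each of the 11 other settings, from -1.33 to -0.66. It stayed at -1.04 under the settings of filter and of transcript type, which could not move it. With the median fold of its nearest genes subtracted (the 100 most like it in length, GC content and mean level), RBM15 stood at -0.81. The lower level was spread unevenly over 3 transcripts that part after the same base of the first exon. ENST00000617047, with 933 codons, had 1.44 FPKM in siHNRNPA1 against 4.24 FPKM in sicontrol. ENST00000487146, with 969 codons, had 1.92 FPKM against 2.69 FPKM, and ENST00000602849, with 957 codons, 0.223 FPKM against 1.93 FPKM. So the share of ENST00000487146 was 48.8% in siHNRNPA1 against 29.4% in sicontrol, and that of the unspliced ENST00000602849 was 5.68% against 21.1%. RBM15 shares 175 exonic bases with RBM15-AS1 on the opposite strand, which was not analysed here. ENST00000617047 starts at chr1:110339466, while ENST00000487146 and ENST00000602849 start at chr1:110339323, so the codon counts need not differ by the ends alone. The ends are shown because the transcripts part there, after chr1:110342268 (GENCODE 29, GRCh38, plus strand). The shared bases before that point are in lower case and the bases that follow in capitals, in ENST00000602849 up to its stop codon:
RBM15 ENST00000617047: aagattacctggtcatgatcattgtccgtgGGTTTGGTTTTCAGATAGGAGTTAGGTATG
RBM15 ENST00000487146: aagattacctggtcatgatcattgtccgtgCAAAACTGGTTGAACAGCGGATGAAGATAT
RBM15 ENST00000602849: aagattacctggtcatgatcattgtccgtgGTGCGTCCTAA

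The erasers were level between the libraries. ALKBH5, the demethylase of nuclear RNA (ENSG00000091542, chromosome 17, 18183078 to 18209954, plus strand), had 28.4 FPKM (27.3 to 29.5) in siHNRNPA1 against 28.6 FPKM (27.5 to 29.8) in sicontrol, a log2 fold of -0.01. Nearly all of it was the coding transcript ENST00000399138 of 394 codons, at 98.0% against 99.9%. FTO, which also demethylates the cap-adjacent base (ENSG00000140718, chromosome 16, 53701692 to 54158512, plus strand), was far less abundant, at 2.27 (2.08 to 2.46) against 2.57 (2.36 to 2.80) and a log2 fold of -0.13. Its estimated counts were 569 in siHNRNPA1 against 536 in sicontrol. Of its 18 transcripts, ENST00000471389, which encodes the full enzyme of 505 codons in an RNA of 11766 bases, had 1.24 FPKM against 1.2 FPKM and 85.2% against 82.5% of the counts. Among its partial coding sequences, ENST00000563011 had 0.458 FPKM (31 counts) in siHNRNPA1 against 0.786 FPKM (50 counts) in sicontrol, and ENST00000268349 had 0.534 FPKM (50 counts) against 0.176 FPKM (16 counts). These few counts moved the shares of FPKM but left the full form in the lead in both libraries. Against its 100 nearest genes FTO stood at 0.85.

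YTHDC1, the nuclear reader, had the widest shift between transcripts among the members. The shorter of its 2 main transcripts led in siHNRNPA1, and the one with the long 3′ untranslated region in sicontrol. The shorter ENST00000579690, of 2983 bases and 735 codons, had 11.9 FPKM (1178 counts) in siHNRNPA1 against 3.0 FPKM (278 counts) in sicontrol. The longer ENST00000344157, of 6232 bases and 727 codons, had 0.806 FPKM (168 counts) against 17.7 FPKM (3430 counts). As shares of the gene, the shorter one held 91.1% in siHNRNPA1 against 13.1% in sicontrol, and the longer one 6.17% against 77.4%. By estimated counts the shorter one held 85.4% (83.5 to 87.2) against 7.4% (6.59 to 8.29). The longer transcript has 2937 more bases of 3′ untranslated region (chr4:68310387-68313323), a longer 5′ end, and 24 bases fewer within the coding sequence (chr4:68318730-68318753), which add 8 codons to the shorter one. These 24 bases stand at the start of an exon and end in AG, the letters at which introns usually end. They are shown in capitals, with 30 bases on either side (GENCODE 29, GRCh38, read on the minus strand):
YTHDC1 ENST00000579690: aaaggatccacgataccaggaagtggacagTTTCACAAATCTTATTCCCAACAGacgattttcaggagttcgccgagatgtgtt
YTHDC1 ENST00000344157: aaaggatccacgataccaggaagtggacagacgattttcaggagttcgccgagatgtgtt

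Of the 2 main transcripts, 1 joins the exon without these bases to the long 3′ end, and the other the exon with them to the short 3′ end. Their values therefore cannot tell which of the sites differed. Another complete form, ENST00000355665, joins the exon without the 24 bases to a short 3′ end (at chr4:68313321) and lacks an exon of 54 bases (chr4:68332794-68332847). This form had 0.267 FPKM (29 counts) in siHNRNPA1, while it was listed at 0 of 3755 counts in sicontrol, which allows a share of up to 0.0982%. As a whole, YTHDC1 (ENSG00000083896, chromosome 4, 68310387 to 68350089, minus strand) had 13.1 FPKM (12.4 to 13.8) in siHNRNPA1 against 22.9 FPKM (22.2 to 23.6) in sicontrol, a log2 fold of -0.76. The gap was wider in reads than per length: the estimated counts were 1379 against 3755, which in CPM is 34.8% of sicontrol, while the FPKM was 57.1%. The mean transcript length of YTHDC1, weighted by FPKM, was 3173 bases in siHNRNPA1 against 5280 bases in sicontrol. YTHDC1 passed 2-fold in CPM (-1.50) and in FPKM scaled to a common sum without mitochondrially encoded genes (-1.09), but not in FPKM as deposited. The exon maps set its transcripts beside those of WTAP.

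**Figure D2:**
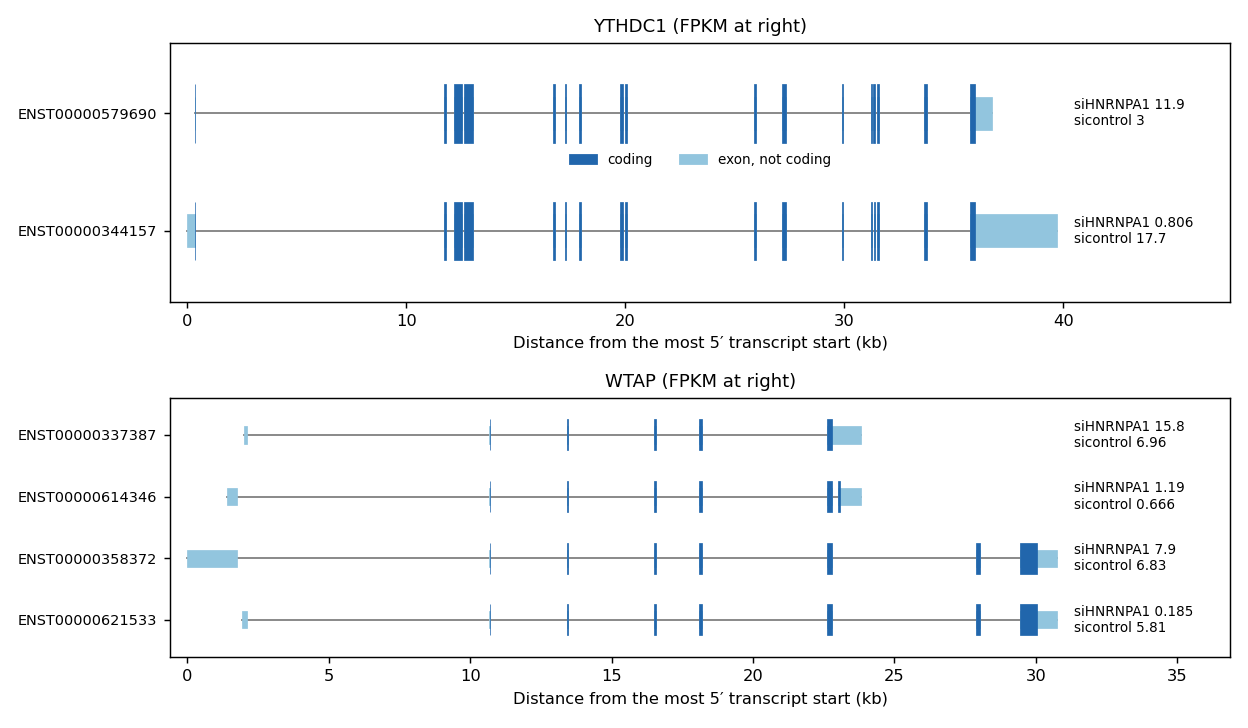
Exons of the main transcripts of YTHDC1 (top) and WTAP (bottom), drawn 5′ to 3′ as distance in kilobases from the most 5′ transcript start, with coding parts in dark blue and other exon parts in light blue and the FPKM in siHNRNPA1 and sicontrol at right. The YTHDC1 transcript with the long last exon is at 0.806 FPKM in siHNRNPA1 against 17.7 in sicontrol, and the WTAP transcript that ends early at 15.8 against 6.96.

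The cytoplasmic readers differed less between the libraries in gene level than YTHDC1, with log2 folds from -0.21 to 0.19. YTHDF1 (ENSG00000149658, chromosome 20, 63195429 to 63216234, minus strand) had 21.2 FPKM (20.3 to 22.1) in siHNRNPA1 against 24.6 FPKM (23.7 to 25.6) in sicontrol, a log2 fold of -0.21, all of it in ENST00000370339. YTHDF2, the reader best known for recruiting the deadenylase complex (ENSG00000198492, chromosome 1, 28736621 to 28769775, plus strand), had 17.8 FPKM (17.0 to 18.7) against 15.5 FPKM (14.7 to 16.4), a log2 fold of 0.19. Its transcript ENST00000373812 made up 96.2% in siHNRNPA1 and 94.0% in sicontrol. YTHDF2 turned to -0.13 after scaling without mitochondrially encoded genes, and 12.2% of the 50-base words of its main transcript also occur in 1 other gene entry. The leading transcripts of the YTHDF genes share no such word with each other.

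YTHDF3 was at a similar level in both libraries but with different transcripts. The gene (ENSG00000185728, chromosome 8, 63168553 to 63212786, plus strand) had 4.29 FPKM (3.99 to 4.61) in siHNRNPA1 against 3.93 FPKM (3.62 to 4.27) in sicontrol, a log2 fold of 0.10 that was -0.02 in TPM and -0.17 without mitochondrially encoded genes. The transcript with 585 codons, ENST00000539294, had 4.28 FPKM (736 counts) in siHNRNPA1 against 1.61 FPKM (259 counts) in sicontrol, or 99.8% against 41.0% of the gene. ENST00000617200, which skips an exon of 86 bases and has 534 codons, was listed at 0 in siHNRNPA1, against 1.70 FPKM (270 counts) in sicontrol. ENST00000621890, a shorter RNA with a coding sequence of the same length, was also listed at 0 in siHNRNPA1, against 0.497 FPKM (36 counts) in sicontrol. All forms of 534 codons together were at 0 of 737 counts in siHNRNPA1, which allows a share of up to 0.499%, against 53.7% (49.5 to 57.8) in sicontrol. YTHDF3 lay under the 5 FPKM asked of both libraries in the count of share differences, so it is not in that count.

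The comparison of transcript shares took genes with 2 or more transcripts and a level of 5 FPKM or more in each library, a condition that 6 members met. Of these, 2 (YTHDC1 and WTAP) had a transcript whose share of the gene differed by at least 20 percentage points, where 40.6% of the 5715 genes that met the condition did. The other 4 were METTL3, ALKBH5, YTHDF1 and YTHDF2. Of the 67 member transcripts, 35 carried a count in both libraries, 12 in sicontrol only, 2 in siHNRNPA1 only and 18 in neither. Of all 95139 transcripts, 51689 carried a count in siHNRNPA1 and 56438 in sicontrol, so more were counted in sicontrol across the table too. The mean transcript length was shorter in siHNRNPA1 by at least 1.25-fold in 2 members, YTHDC1 and METTL14, where 6.57% of the 10533 genes with at least 2 transcripts were, and it was longer by that much in none. Its log2 ratio was -0.73 for YTHDC1 and -0.34 for METTL14, against a median of 0.01 over all genes. METTL14 lay close to the limit, which was set after the data had been seen. In siHNRNPA1, 42.0% of its FPKM lay in the short ENST00000506780, with 17 counts. By estimated counts its full coding transcript held 90.7% in siHNRNPA1 against 96.9% in sicontrol. The intervals on shares do not cover errors in dividing reads between overlapping transcripts.

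**Figure D3:**
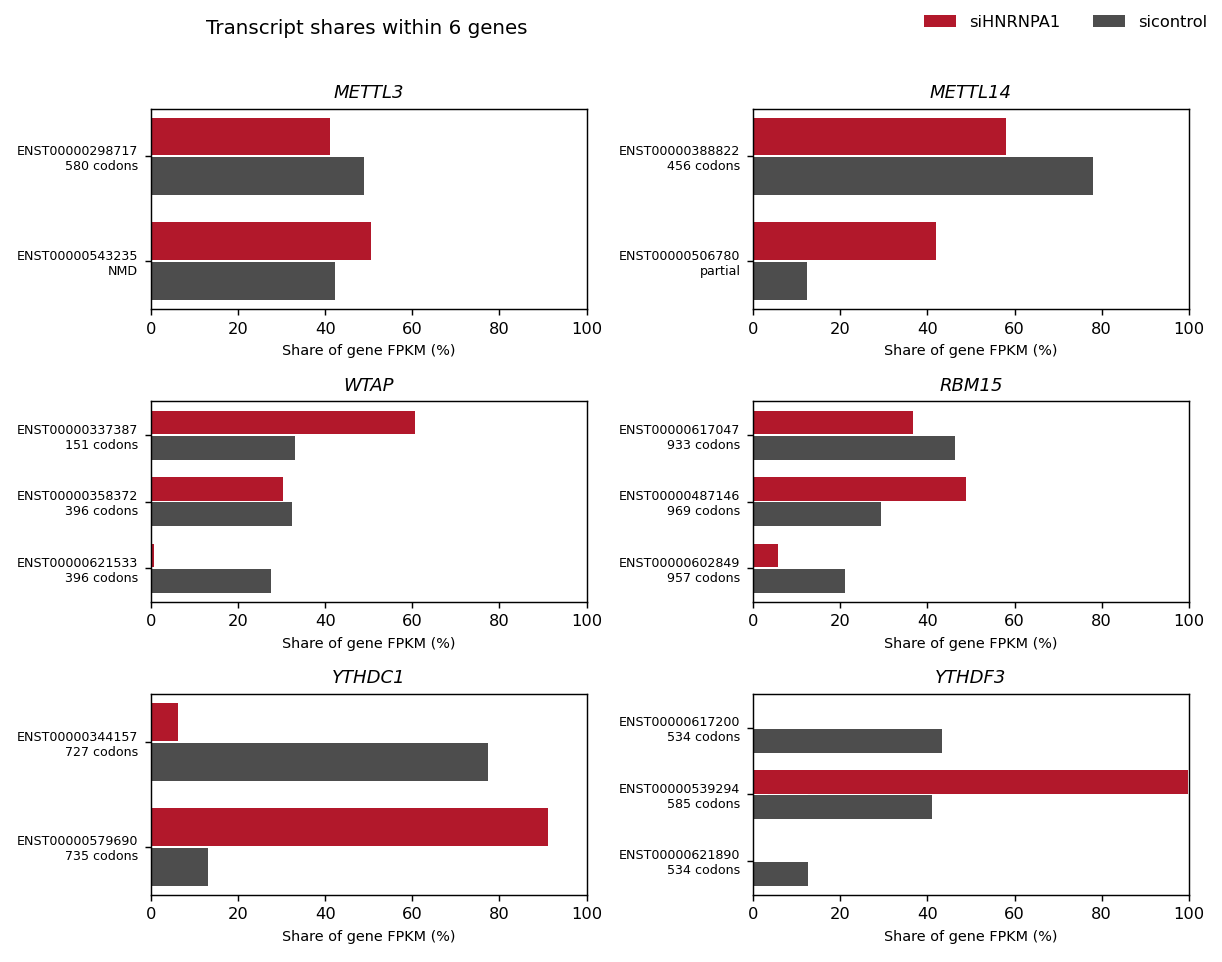
Share of the gene's FPKM in percent held by each transcript with at least 10% in either library, for 6 members, with siHNRNPA1 (red) above sicontrol (grey), 1 library each and no error bars. The longest pairs of unequal bars are those of YTHDC1 (91.1% against 13.1%) and YTHDF3 (99.8% against 41.0%); in METTL3 the decay transcript (NMD) is at 50.6% against 42.2%.

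Base composition and length moved with the fold over the whole table. GC content and length of the most abundant transcript were known for 11916 of the 11921 genes. Spearman's rho of the fold across these genes, none of them an independent replicate, was 0.58 with GC content and -0.46 with length. The median log2 fold was -0.98 in the fifth of genes with the lowest GC content, which held METTL14, YTHDC1 and YTHDF3, and 0.59 in the fifth with the highest, which held no member. The leading transcripts of the members had a median GC content of 47.0%, against 50.6% over all genes, and a median length of 3292 against 2790 bases. With the median fold of the 100 nearest genes subtracted, METTL14 stood at 0.40 and YTHDC1 at 0.49, so that the sign of both turned. By that measure RBM15 at -0.81 was the lowest member and YTHDF3 at 1.39 the highest and the only one past 2-fold. FTO stood at 0.85, YTHDF2 at 0.64, WTAP at 0.51, METTL3 at 0.03, YTHDF1 at -0.23 and ALKBH5 at -0.27. The part of GC content and length in the folds was not tested.

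**Figure D4:**
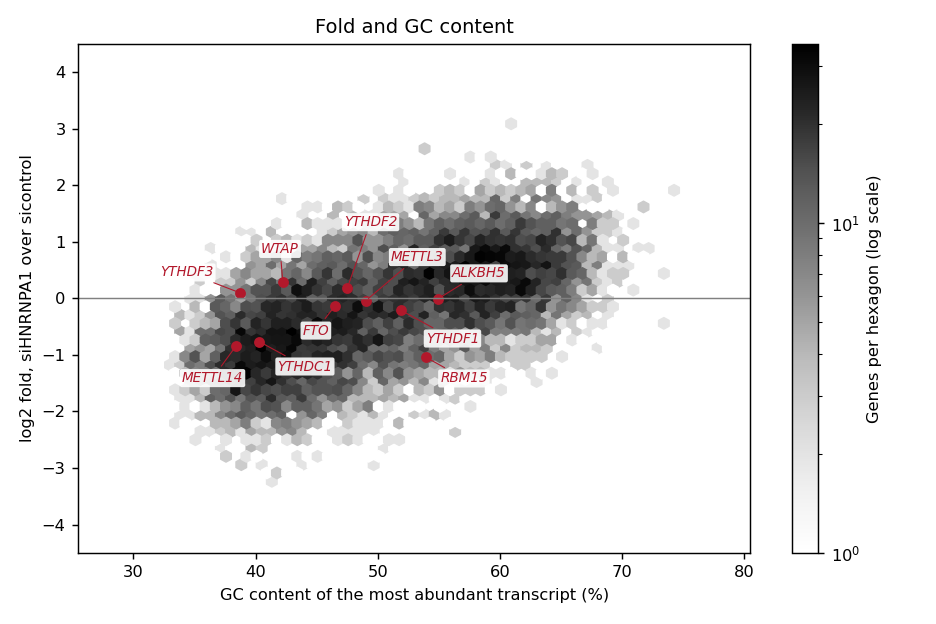
Log2 fold of gene FPKM (siHNRNPA1 over sicontrol, pseudocount 1) against GC content in percent of the most abundant transcript. Hexagons, shaded by number of genes, hold the genes of at least 1 FPKM on average with known GC content. Red points are the 10 members. METTL14 and YTHDC1 lie within the dark band of genes with low GC content, YTHDF3 at its upper edge, and RBM15 at 53.9% GC towards the lower edge.

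The other genes of the pathway were taken from lists of 51 symbols, of which 49 were found and all 49 passed the filter. Past 2-fold, 12 were lower and 4 higher, with a median log2 fold of -0.30, set against 21.9% lower and 12.4% higher over all genes. Of 10 other methyltransferases and writer subunits, 2 were lower and 1 higher (median -0.62). ZC3H13, a subunit that holds the writer complex in the nucleus, had 4.02 FPKM in siHNRNPA1 against 22.1 FPKM in sicontrol (log2 fold -2.21). CBLL1, the subunit also called HAKAI, had 4.37 FPKM against 12.7 FPKM (-1.35). After subtraction of the nearest genes ZC3H13 stood at -0.86 and CBLL1 at -0.13. TRMT112, the activating partner of several methyltransferases including METTL5, had 189 FPKM against 64.6 FPKM (1.54). VIRMA, the scaffold subunit listed under its older symbol KIAA1429 and named here after its values had been seen, had 4.17 FPKM in siHNRNPA1 against 8.69 FPKM in sicontrol (-0.91).

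Of 14 other readers and m6A-sensitive binding proteins, 6 were lower past 2-fold and none was higher (median -0.68), beside 21.9% lower and 12.4% higher over all genes. IGF2BP3, a binding protein that stabilises its targets, had 6.30 FPKM in siHNRNPA1 against 52.1 FPKM in sicontrol (log2 fold -2.86). Its relative IGF2BP2 had 15.2 FPKM against 58.3 FPKM (-1.87). EIF3A, a subunit of the translation initiation factor eIF3, had 22.9 FPKM against 113 FPKM (-2.26). After subtraction of the nearest genes they stood at -1.68 for IGF2BP3, -1.60 for IGF2BP2 and -1.29 for EIF3A. They were the 3 of the 49 pathway genes past 2-fold lower by that measure, where 1002 of 11916 genes were. YTHDC2, a further protein with a YTH domain that stood in this list and is named after its values had been seen, had 1.78 FPKM in siHNRNPA1 against 4.21 FPKM in sicontrol (-0.90, and 0.31 after the subtraction).

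Of the 7 other AlkB dioxygenases, none was at least 2-fold lower and 2 were higher (median 0.88), beside 21.9% lower and 12.4% higher over all genes. ALKBH7, a mitochondrial member of the family, had 38.5 FPKM in siHNRNPA1 against 15.3 FPKM in sicontrol (log2 fold 1.27). ALKBH3, which repairs alkylated bases, had 7.28 FPKM against 2.90 FPKM (1.09). ALKBH2, a DNA repair enzyme, had 17.6 FPKM against 8.32 FPKM. It lay just under 2-fold with the pseudocount and past it without (log2 fold 1.08). Subtraction of the nearest genes left none of the 7 past 2-fold, though ALKBH3 was close at 0.99. It stood at 1.09 with GC content and length weighted over transcripts.

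The methyl donor of the reaction is S-adenosylmethionine. Of 7 genes of its synthesis and turnover, relatives included, 4 were lower past 2-fold and none was higher (median -1.19), where 21.9% of all genes were lower and 12.4% higher. MAT2A, the enzyme that makes the donor, had 109 FPKM in siHNRNPA1 against 79.4 FPKM in sicontrol (log2 fold 0.46). AHCY, the hydrolase of its product, had 221 FPKM against 210 FPKM (0.07); MAT2A and AHCY are named after their values had been seen. AHCYL2, a relative of that hydrolase, had 2.06 FPKM in siHNRNPA1 against 9.08 FPKM in sicontrol (log2 fold -1.72). AHCYL1, another relative, had 12.6 FPKM against 35.6 FPKM (-1.43), and MTR, the methionine synthase, 1.35 FPKM against 4.87 FPKM (-1.32). None of the 7 was past 2-fold after subtraction of the nearest genes. The exon junction complex, which keeps m6A away from splice sites, had none of 5 genes past 2-fold (median 0.69), beside 21.9% lower and 12.4% higher over all genes. EIF4A3, its helicase, had 83.0 FPKM against 42.8 FPKM (0.94), MAGOHB 9.25 FPKM against 4.52 FPKM (0.89), and CASC3, a peripheral subunit, 27.6 FPKM against 47.1 FPKM (-0.75). After subtraction of the nearest genes MAGOHB stood at 1.93, the only gene of this list past 2-fold, where 961 of 11916 genes were higher.

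Of 6 partners of YTHDC1 and YTHDF2, 1 was at least 2-fold higher and none lower (median 0.25), where 12.4% of all genes were higher and 21.9% lower. NXF1, the messenger RNA export receptor, had 23.8 FPKM in siHNRNPA1 against 9.92 FPKM in sicontrol (log2 fold 1.18). SRSF3, a splicing factor that YTHDC1 recruits, had 71.7 FPKM against 43.7 FPKM (0.70). CNOT1, the scaffold of the deadenylase complex that YTHDF2 recruits, had 32.9 FPKM against 63.7 FPKM (-0.93). After subtraction of the nearest genes NXF1 stood at 1.16, SRSF3 at 1.79 and CNOT1 at 0.06. The plot of folds by list sets these genes beside the members.

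**Figure D5:**
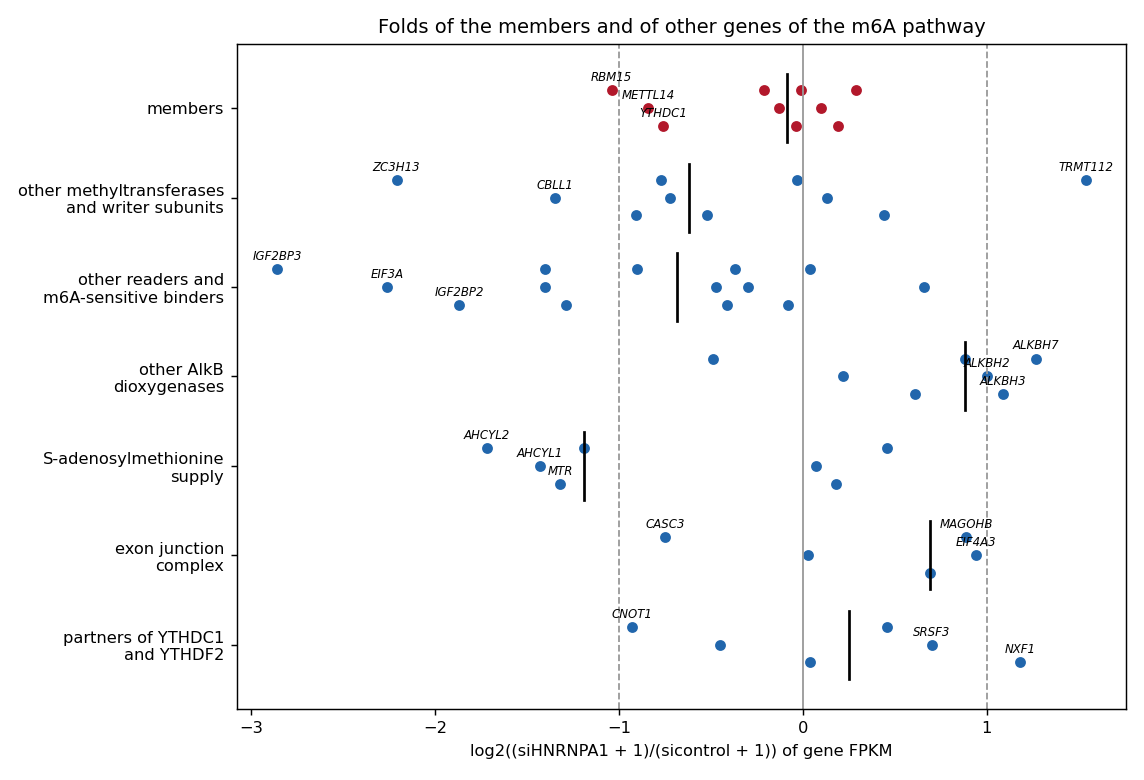
Log2 fold of gene FPKM (siHNRNPA1 over sicontrol, pseudocount 1) for the 10 members (red) and 49 other genes of the pathway (blue), each point a gene; black bars are list medians and dashed lines mark 2-fold. Named are the 3 genes with the largest absolute fold of each list, from IGF2BP3 at -2.86 to TRMT112 at 1.54.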

How the data were processed

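Libraries of messenger RNA from H9 cells, 1 per condition, were analysed from the transcript table of the series. Per the file headers, the table gives a count, a TPM and an FPKM value per transcript and library. Whole numbers fill the deposited count columns, but they behave as estimated counts rounded up: of counts from 1 to 3, 90.3% in siHNRNPA1 and 90.4% in sicontrol equalled the value implied by FPKM and length, rounded up (tolerance 0.05). FPKM as deposited by the authors totals 520633 in siHNRNPA1 and 468831 in sicontrol, and TPM as deposited totals 999999 in siHNRNPA1 and 1000000 in sicontrol. Aligner, quantifier and annotation were not given in the sources used here. Mouse builds (GRCm38, mm10) stand in the submitters' processing notes, whereas the identifiers are human: 95033 of the transcripts are in GENCODE 29 (GRCh38), 93426 at the same position, with all 67 member transcripts among these. A further 6 per-sample columns match neither library and were not used.

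FPKM was summed per Gene ID with pandas 2.3.3. Folds used a pseudocount of 1 FPKM, genes with a mean of at least 1 FPKM were kept, and 2-fold was counted. Intervals (SciPy 1.17.1) are exact 95% Poisson or Clopper-Pearson intervals that take each estimated count as 1 read. With 1 library per group no test was applied. The scripts were tested on simulated data. Coding lengths, exon structures and sequences were read from the GENCODE 29 transcripts. Named were all members, HNRNPA1, transcripts with at least 10% of a member's FPKM in either library, and the 3 genes of each list with the largest absolute fold; transcripts under 10% that are named were chosen after their values were seen. The 1.25-fold limit on mean transcript length and the grouping of transcripts by coding sequence were set after the data had been seen. The members and the lists were chosen with earlier results of these data known. Alternatives covered the pseudocount, the filter, TPM, scaling, counts, transcript type, nearest genes, and the limits on shares. Part of the neural marker list is not reported here.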

Additional observations from a re-analysis of the deposited data

How the results depend on the processing

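No paired analysis was possible because each group has 1 library. Against 1 member at least 2-fold lower (RBM15) and 0 higher, 2 were lower (METTL14, RBM15) with a pseudocount of 0.1 FPKM and in TPM, and 3 (with YTHDC1) in CPM of the estimated counts and after scaling to a common sum without mitochondrially encoded genes. None was lower (0) with a pseudocount of 5 FPKM, by median ratio scaling, or after subtraction of the 100 nearest genes, where 1 (YTHDF3) was higher. With GC content and length weighted over transcripts, an alternative chosen after seeing the data, 0 were lower and 2 (FTO, YTHDF3) higher. The other m6A genes, 12 lower and 4 higher, became 7 and 2 with a pseudocount of 5 FPKM. Subtraction of nearest genes left 3 lower in either version, and 8 were higher by median ratio scaling and 1 without mitochondrially encoded genes. All genes, 2609 lower and 1480 higher (36.2% higher), became 947 and 841 with a pseudocount of 5 FPKM (47.0%), 1002 and 961 after subtraction (49.0%), and 932 and 957 in its weighted version (50.7%). With a mean of at least 5 FPKM 1450 were lower (45.8% of those past 2-fold were higher). Without mitochondrially encoded genes 792 were higher (18.3%), and by median ratio scaling the share was 46.5%. The median fold of all genes, -0.13, was -0.28 in TPM and -0.42 without mitochondrially encoded genes. Member transcripts with a share difference of 20 points numbered 4, and 8 with genes from 1 FPKM, which adds METTL14 and YTHDF3. Causes were not tested, except that a larger pseudocount shrinks folds by construction. With 1 library per group, no value shows how far libraries of the same condition would differ.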

Other observations

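The letters TAGGG, the core of the motif best known for hnRNP A1, were searched on the sense strand only of the most abundant transcript of each member. FTO held 7, ALKBH5 3, and METTL14, RBM15, YTHDF1, YTHDF2 and YTHDF3 held 2 each. YTHDC1, WTAP and METTL3 held 0. Of leading transcripts within 10% of its length, 90.9% held the letters for YTHDC1, 46.1% for WTAP and 54.2% for METTL3. No match says only that these letters are not in these transcripts: introns were not searched, and nothing about binding follows.

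RBM15B, the close relative of RBM15 in the writer complex, was looked up after the values of RBM15 had been seen. It had 35.8 FPKM in siHNRNPA1 against 26.1 FPKM in sicontrol, a log2 fold of 0.44. The leading transcript of RBM15 shares 0.896% of its 50-base words with 1 other gene entry. Whether the fold of RBM15 differs from that of RBM15B was not tested.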
